A study of Mus musculus with 2 samples.

Results

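AP-1 is a family of dimeric transcription factors, and 10 of its genes were followed here in mouse mammary basal cells grown with or without M2-like macrophages: Fos, Fosb, Fosl1, Fosl2, Jun, Junb, Jund, Atf3, Batf3 and Maff. The genes were chosen by name, and all 10 were found among the 49492 genes of the count table. Basal cells were sorted from the glands of adult wild-type females and cultured in 3D matrix-gel. They were grown either with no further treatment (ctrl) or with M2 macrophages in a trans-well chamber for 11 to 14 days (M2). By the paper's methods, the common culture medium held EGF and ITS, and both medium and macrophages were renewed during culture. The exact culture time of the ctrl library is not given in the sources used here. Each group held 1 library, so the variation from culture to culture is unknown and each test compares these libraries and not the conditions. The macrophages were derived from bone marrow, polarised with Il-4 and Il-13 and kept apart from the basal cells by the porous membrane of the chamber. How many animals gave the cells of each library is not given in the sources used here.

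Fos and Jun proteins share a basic region that contacts DNA and a leucine zipper that holds the dimer together. Jun proteins can pair with each other, whereas Fos proteins need a Jun partner. Fos, Fosb, Jun, Junb and Atf3 are immediate early genes, whose transcripts appear within minutes of a growth factor, cytokine or stress signal and decay quickly, while Fosl1 and Fosl2 typically follow later and last longer. In epithelia the family is known for its part in proliferation, matrix remodelling and inflammatory gene expression.

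Reads in genes numbered 26912610 for ctrl and 29413844 for M2, and 19233 genes with at least 10 reads summed over both libraries were tested. Levels are given as CPM, the reads of a gene scaled to the size of its library. A gene was called when its difference was at least 2-fold with an adjusted p under 0.05 in the exact binomial test on reads, and 95% intervals of fold differences cover counting error only. By this rule 8.16% of all genes tested were called higher and 6.55% lower in M2, and the median log2 fold difference was -0.0032. The basal keratin genes Krt5 (56383 and 83619 reads in ctrl and M2) and Krt14 (81991 and 68968 reads) were abundant in both libraries. The luminal keratin gene Krt8 was abundant too (29888 and 36348 reads), so the cultures held both kinds of epithelial transcript. By flow cytometry of such cultures, the paper reports mostly luminal cells in both groups and a larger basal share with M2.

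The AP-1 genes did not move together. Of the 9 members with enough reads to be tested, 3 were called lower in M2 (Fos, Fosb and Atf3), 1 was called higher (Fosl1) and 5 were not called (Fosl2, Jun, Junb, Jund and Maff). Over all genes tested, 6.55% were called lower and 8.16% higher. Batf3, a factor best known from dendritic cells, had 0 reads in ctrl and 3 reads in M2. Both counts are at or under the 3 reads that a count of 0 allows (0.109 CPM in ctrl and 0.104 CPM in M2), so no difference in Batf3 was detectable at this depth. Summed over the 10 members, the family made up 0.395% of all ctrl reads, with 95% Wilson limits of 0.392 and 0.397. The same sum was 0.178% of all M2 reads, with limits of 0.177 and 0.180. Fos alone gave 42339 of their 106175 reads in ctrl and 11153 of 52437 in M2. Without Fos, the sum of the other 9 still differed by a log2 value of -0.70 (95% interval -0.72 to -0.68).

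Per kilobase of exon (RPKM, the CPM divided by exon length), the order of levels in ctrl was Fos, Jun, Jund, Junb, Fosb, Atf3, Fosl2, Maff, Fosl1 and Batf3. In M2 it was Jun, Fos, Jund, Junb, Atf3, Maff, Fosl2, Fosb, Fosl1 and Batf3. On this measure Jun passed Fos, and Fosb, with 6243 exon bases counted, went below Atf3, Maff and Fosl2. By CPM, not divided by length, Fosb stayed above Atf3 and Maff in M2 (55.0 against 31.1 and 25.0). It was below Fosl2 (111.6) there by CPM too. Fosb took rank 870 among all genes in ctrl and rank 5934 in M2, Atf3 took ranks 1029 and 4023, and Jun stayed near the top with ranks 101 and 156. Maff and Fosl2 lay next to each other in M2, at 11.8 and 11.5 RPKM, and no replicate spread exists by which neighbours could be told apart.

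**Figure D1:**
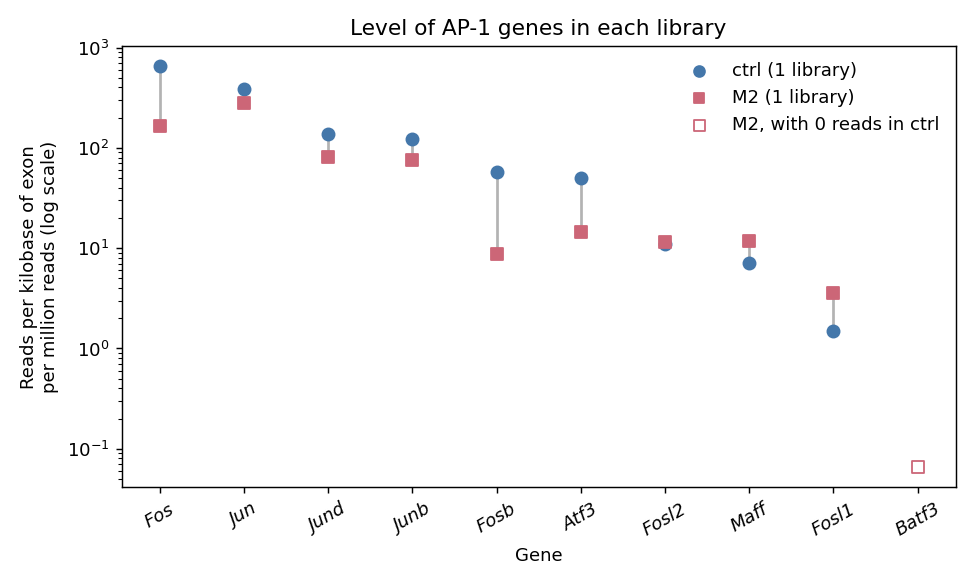
Level in RPKM (log axis) for each of the 10 AP-1 genes, with circles for the ctrl library and squares for the M2 library (1 library each, no error bars). Fos stands highest in ctrl at 655 and lies below Jun in M2, at 165 against 281, and the open square marks Batf3, which had 0 reads in ctrl.

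The start regions of 5 members are shown because they include the 3 genes called lower, Jun as the most abundant Jun gene, and Maff as a member with more reads in M2. Sequences are those of RefSeq on GRCm38.p6, 5′ to 3′ on the strand of the gene, ending at or just before the base upstream of the RefSeq transcription start. The letters TGACG (in either direction) form the core of the element bound by CREB, ATF and some AP-1 dimers, and TGACNTCA is the longer element with 1 free base. Capitals mark these letters and a TATAAA box. The motifs were chosen after the members' values were seen.

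Fos, chr12:85473790-85473889, plus strand:
Fos: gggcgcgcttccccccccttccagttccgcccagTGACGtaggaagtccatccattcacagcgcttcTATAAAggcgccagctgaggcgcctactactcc
Fosb, chr7:19310052-19310145, minus strand:
Fosb: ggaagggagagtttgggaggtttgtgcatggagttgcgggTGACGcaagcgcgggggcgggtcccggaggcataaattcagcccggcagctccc
Atf3, chr1:191183334-191183433, minus strand:
Atf3: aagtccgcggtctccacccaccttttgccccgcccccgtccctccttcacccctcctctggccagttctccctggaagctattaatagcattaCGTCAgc
Jun, chr4:95052223-95052322, minus strand:
Jun: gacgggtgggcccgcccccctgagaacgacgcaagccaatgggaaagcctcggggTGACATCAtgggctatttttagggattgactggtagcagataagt
Maff, chr15:79347420-79347519, plus strand:
Maff: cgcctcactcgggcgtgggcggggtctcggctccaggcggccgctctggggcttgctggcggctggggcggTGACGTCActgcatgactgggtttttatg

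The last 7 bases of the Atf3 stretch lie in an exon of the deposited annotation. The Atf3 start used, at 191183333, lies inside the counted gene, which reaches upstream to 191218039, and no window was placed at that outer end. Windows of 300 bases (250 before and 50 after the start) were found for 9 of the 10 members, all but Fosl1. They numbered 11 in all since Maff has 3 start sites. TGACG was read on either strand in 6 of these 11 windows, those of Fos, Fosb, Atf3, Junb and 2 of the 3 of Maff, against 20.8% of 32851 windows of the same length. The element TGACNTCA, which overlaps TGACG where its free base is G, was found in 3 windows, of Jun and Maff, against 8.83% of all windows. TATAAA was found in 2 windows, of Fos and Junb (13.6% of all windows). Neither the AP-1 site TGANTCA (7.81% of all windows) nor the CArG box of serum response factor (1.63%) was found in these windows. Sequence further than 250 bases upstream was not searched, so sites lying there would be missed. TGACG was present in the 3 genes called lower and also in Junb and Maff, which were not called. It could not be sought in Fosl1, the only member called higher, which had no window.

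Among the Fos genes, the reads of Fos and Fosb were lower in M2 and those of Fosl1 were higher. Fos, the founding member of the family, is on chromosome 12 (85473890 to 85477273, GRCm38, plus strand, 4 exon blocks). It fell from 42339 to 11153 reads, or from 1541 to 387 CPM. The log2 fold difference was -1.99, with 95% limits of -2.02 and -1.96, which left 25.1% of the ctrl level. By reads per kilobase it took rank 43 of all genes in ctrl and rank 316 in M2. Among all genes tested, 2.6% had a log2 difference as low as that of Fos or lower.

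Fosb (chromosome 7, 19302696 to 19310051, minus strand) had the lowest value of the family. Its reads went from 9822 to 1585, or from 357.6 to 55.0 CPM. The log2 fold difference was -2.70, with 95% limits of -2.78 and -2.62, and 15.4% of the ctrl level was left. Fosb also gives a short splice form, DeltaFosB, which lasts longer as a protein. Counts per gene do not separate these forms. Since Fosb fell further than Fos, the ratio of Fos to Fosb per kilobase went from 11.4 to 18.7, a log2 change of 0.71 (exact conditional 95% interval 0.62 to 0.79). Such a ratio of 2 genes does not depend on how the libraries are scaled.

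Fosl1, which encodes Fra-1, is on chromosome 19 (5447703 to 5455945). It was the only member called higher, with 70 reads in ctrl and 175 in M2 (2.55 and 6.07 CPM). Its log2 fold difference was 1.24, with 95% limits of 0.84 and 1.67 (adjusted p = 6.75e-10, exact binomial test). Its level was low in both libraries, at 1.49 and 3.56 RPKM, and 7.33% of all genes tested had a value as high or higher. Fosl2, which encodes Fra-2 (chromosome 5, 32135801 to 32157842), had 2944 and 3215 reads (107.2 and 111.6 CPM). Its log2 difference of 0.06 (-0.01 to 0.13) was not called and lay within counting error.

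The makeup of the Fos genes differed accordingly between the libraries, even though Fos led in both. Per kilobase of exon, Fos gave 90.4% of the level of the 4 Fos genes in ctrl and 87.3% in M2. Fosb went from 7.90% to 4.68%, Fosl2 from 1.53% to 6.12% and Fosl1 from 0.206% to 1.89%. By reads, not divided by length, the shares were 76.7% and 69.2% for Fos, 17.8% and 9.83% for Fosb, 5.34% and 19.9% for Fosl2, and 0.127% and 1.09% for Fosl1, with the same directions. Per kilobase, the ratio of Fos to Fosl1 was 439 in ctrl and 46.3 in M2, which on the log2 scale is a change of -3.25 (exact conditional 95% limits -3.67 and -2.84). Fosb stood above Fosl2 in ctrl, by a ratio of 5.17 per kilobase, and below it in M2, by a ratio of 0.764. The ratio of Fosl1 to Fosl2 changed by 1.19 (0.78 to 1.62), so the late Fos genes differed from each other too.

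**Figure D2:**
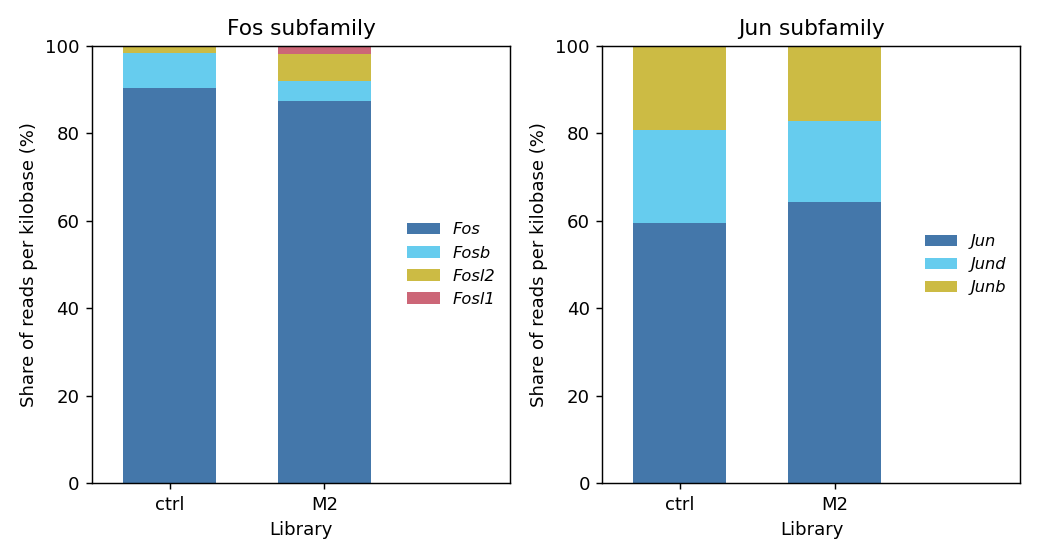
Share (%) of each gene in the summed reads per kilobase of the Fos genes (left) and the Jun genes (right), as stacked bars for the ctrl and M2 libraries (1 library each). Fosl2 and Fosl1 take a larger part of the Fos bar in M2, at 6.12% and 1.89%, while the order Jun, Jund, Junb is the same in both bars on the right.

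None of the 3 Jun genes was called, and all 3 had negative values. Jun, the gene of c-Jun (chromosome 4, 95049034 to 95052222, 1 exon), gave 33576 and 25813 reads (1222 and 895.7 CPM in ctrl and M2). Its log2 fold difference was -0.45, with 95% limits of -0.47 and -0.43. Junb (chromosome 8, 84974484 to 84978718) had 7829 and 4967 reads (285 and 172.4 CPM), with a value of -0.73 (-0.78 to -0.67). Jund (chromosome 8, 70698949 to 70700616, 1 exon) had 6217 and 3910 reads (226.3 and 135.7 CPM), with a value of -0.74 (-0.80 to -0.68). Junb is often described as a weaker activator than c-Jun, and Jund as the member expressed most steadily. The intervals of all 3 lay below 0 and above the 2-fold limit of -1, so the libraries differed beyond counting error but by less than the threshold.

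Junb and Jund had like differences, and that of Jun was nearer to 0. The ratio of Junb to Jund per kilobase was 0.913 and 0.921, a log2 change of 0.01 (exact conditional 95% interval -0.07 to 0.09). The ratio of Jun to Junb changed by 0.28 (0.22 to 0.33) and that of Jun to Jund by 0.29 (0.23 to 0.35) on the log2 scale. Per kilobase, Jun gave 59.6% of the level of the Jun genes in ctrl and 64.3% in M2. Genes on the opposite strand overlap exons of each Jun gene, namely Junos (232 bases shared with Jun), Prdx2 (173 bases shared with Junb) and Gm11175 (877 bases shared with Jund). Junos had 858 and 629 reads, Prdx2 had 3988 and 5327, and Gm11175 had 2454 and 1536. The use of strand is not given in the sources used here, so reads of the shared stretches cannot be told apart. No other member shares exon bases with another gene of the table.

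The order of the Fos and Jun sums differed between the libraries. The 4 Fos genes held 55175 reads in ctrl and 16128 in M2. The 3 Jun genes held 47622 and 34690. Per kilobase the ratio of Fos to Jun genes went from 1.13 to 0.431, or -1.39 on the log2 scale, and on reads alone the change was -1.32 (exact conditional 95% interval -1.35 to -1.29). Fos against Jun alone gave a ratio of 1.71 and 0.586 per kilobase, so that Fos stood above Jun in ctrl and below it in M2.

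**Figure D3:**
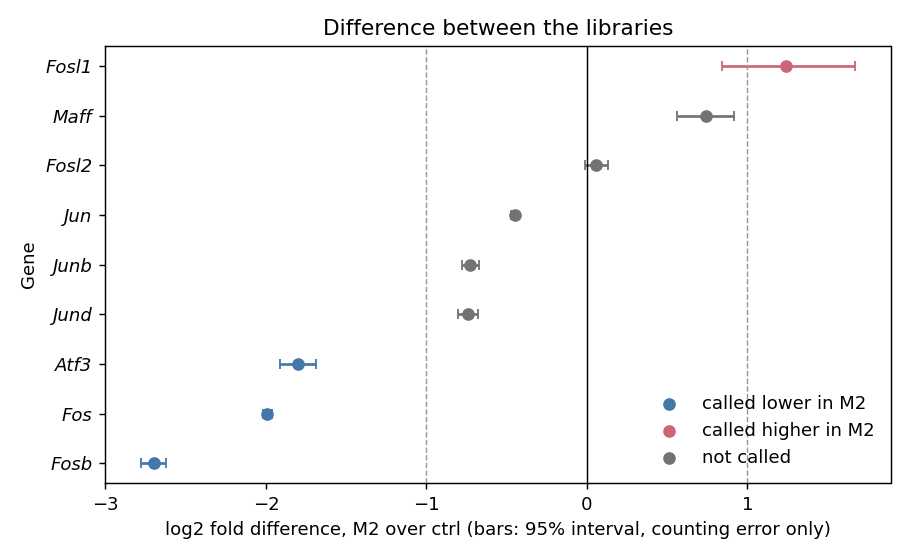
log2 fold difference of M2 over ctrl for the 9 AP-1 genes tested, with bars for the 95% counting interval and dashed lines at 2-fold. Fosb, Fos and Atf3 lie below -1 with their whole intervals, the Jun genes lie between -1 and 0, and the interval of Fosl1 crosses the line at 1.

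Atf3 and Maff differed in direction. Atf3, a stress-induced factor that often represses (chromosome 1, 191170296 to 191218039), gave 2966 and 895 reads (108 and 31.1 CPM in ctrl and M2). Its log2 fold difference was -1.80, with 95% limits of -1.91 and -1.69. The ratio of Atf3 to Fos reads changed by 0.20 (0.08 to 0.31), so Atf3 fell slightly less than Fos. Maff, a small Maf protein without an activation domain of its own (chromosome 15, 79347541 to 79359072), had 412 and 721 reads (15.0 and 25.0 CPM). Its value of 0.74 (0.56 to 0.92) was above counting error and below the 2-fold limit, so it was not called. The ratio of Maff to Fos reads changed by 2.73 (2.55 to 2.91) on the log2 scale.

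Because 1 library a group gives no estimate of the variation between cultures, the calls were repeated in the exactTest of edgeR with an assumed biological coefficient of variation. With 0.2, Fos (adjusted p = 9.96e-05), Fosb (5.24e-08) and Atf3 (0.00068) were still called lower, against 3.59% of all genes tested. Fosl1 was no longer called higher (adjusted p = 0.0761, edgeR exactTest; 5.01% of all genes were called higher). With 0.4, 0 of the 9 members were called, against 0.676% of all genes lower and 0.910% higher. Among genes with at least 1000 reads summed, a limit chosen after the values were seen, 3.00% were called lower by the exact binomial test.

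To place the family among other first-wave genes, 20 tested immediate early genes outside AP-1 were counted, and 6 were called lower, 0 higher and 14 not called, against 6.55% of all genes called lower. In exactTest 5 were called lower at an assumed variation of 0.2 and 0 at 0.4. Their median log2 fold difference was -0.58, against -0.73 for the 9 AP-1 members and -0.0032 for all genes tested. Nr4a1, an orphan nuclear receptor, had 7989 and 1297 reads, a value of -2.69 (95% interval -2.78 to -2.61). Egr1, a zinc finger factor, had 12610 and 4322 reads (-1.61), and Egr2 had 1261 and 512 (-1.37). Zfp36, whose protein promotes the decay of AU-rich mRNAs, had 16616 and 6272 reads (-1.47). Klf2, a Krüppel-like factor, had 341 and 58 reads (-2.60), and Dusp1, a phosphatase of MAP kinases, had 9423 and 4804 (-1.04). Btg2, an antiproliferative gene (19794 and 10963 reads, -0.92), and Ctgf, the gene of the matrix protein CCN2 (15081 and 14606, -0.12), had negative values and were not called. Of the 20 genes, 3 had positive values and none of these was called, namely Klf10 (1372 and 2862 reads, 0.99), Myc (492 and 602, 0.22) and Nr4a3 (32 and 37, 0.13), named after their values were seen.

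Among 29 tested genes with described AP-1 sites, 23 were called higher in M2, 1 lower and 5 not called, against 8.16% of all genes called higher. The list was chosen with earlier results of these data known, so its count is not independent evidence of a direction. Its median was 1.78. The called genes with the most reads were Cd44, a hyaluronan receptor (10330 and 37200 reads, log2 fold difference 1.78), the neutrophil chemokine gene Cxcl1 (6471 and 32661, 2.27), the osteopontin gene Spp1 (4199 and 21651, 2.30), Vegfa (934 and 7510, 2.94), the urokinase gene Plau (2336 and 6147, 1.33) and Ptgs2, the inducible cyclooxygenase (2279 and 4857, 1.02). The matrix metalloproteinase genes, textbook targets of AP-1, were named after their values were seen. Their log2 fold differences were 5.23 for Mmp13 (33 and 1335 reads), 5.11 for Mmp3 (73 and 2674), 3.81 for Mmp10 (32 and 483) and 1.67 for Mmp9 (330 and 1104). Mmp1a had 0 reads in both libraries and Mmp1b had 0 and 1, so neither was tested. Areg, which encodes amphiregulin, was the 1 gene called lower (1137 and 315 reads, -1.92). The cell cycle gene Ccnd1 (11967 and 11337 reads, -0.15) and the gap junction gene Gja1 (22353 and 17108, -0.45) were not called. In exactTest 19 of the 29 were called higher at an assumed variation of 0.2 and 6 at 0.4. Many of these genes also have sites for other factors such as NF-κB, and occupancy by AP-1 was not measured.

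**Figure D4:**
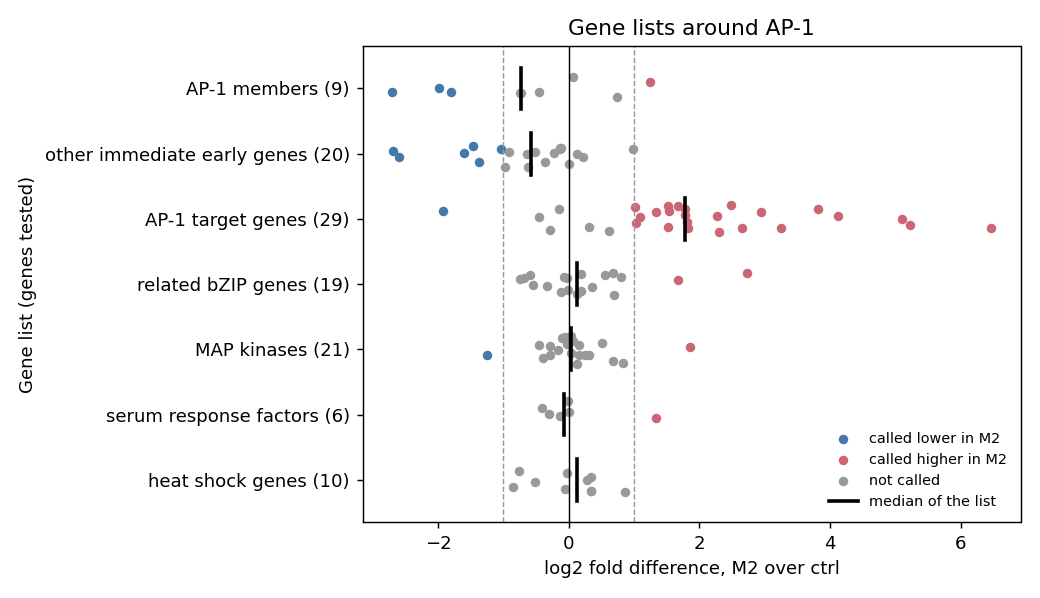
log2 fold difference of M2 over ctrl for each tested gene of 7 lists, with the number of genes tested in brackets, black bars for the list medians and dashed lines at 2-fold. The AP-1 members and the other immediate early genes have medians of -0.73 and -0.58, while the AP-1 target genes have a median of 1.78.

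Of 21 tested genes of MAP kinase cascades, 1 was called higher, 1 lower and 19 were not called, against 8.16% of all genes called higher and 6.55% lower. Map3k1, an upstream kinase of the JNK branch, was called lower (2855 and 1248 reads, -1.26), and Mapk11, which encodes a p38 kinase, was called higher (43 and 165 reads, 1.85). Mapk3, which encodes an ERK kinase, had 3327 and 2664 reads (-0.39) and was not called. These are transcript levels, and kinase activity was not measured in these libraries. By immunoblot, the paper reports that co-culture with M2 could activate PI3K signaling by way of AKT and ERK. Of 6 tested genes of serum response factor and its partners, Elk3 alone was called (910 and 2399 reads, 1.33, higher), while Srf itself had 2142 and 2253 reads (0.00, 95% interval -0.08 to 0.09). At an assumed variation of 0.4 in exactTest, 0 genes of either list were called.

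Of 19 tested bZIP relatives and dimer partners, 2 were called higher and 0 lower, against 8.16% of all genes called higher, and 0 were called at an assumed variation of 0.4 in exactTest. Nfe2l3, a partner of small Maf proteins such as Maff, had 179 and 1249 reads (2.73, 95% interval 2.51 to 2.97), and Batf, a close relative of Batf3, had 16 and 56 reads (1.68, 0.92 to 2.64). Nfe2l1 (18477 and 19159 reads, -0.02) and Atf4, the factor of the integrated stress response (5153 and 7924 reads, 0.55), were not called.

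Signs of handling and of other cell types were counted beside these values, since immediate early genes are known to respond to cell stress during harvest. Of 10 heat shock genes, 0 were called by the exact binomial rule or by exactTest at either assumed value. The exact binomial rule called 8.16% of all genes tested higher and 6.55% lower. Their median was 0.12, and the genes with the most reads were Hspa8 (36021 and 47739 reads, 0.34) and Hsp90aa1 (11854 and 22628, 0.86). The inducible genes Hspa1a (3282 and 2038, -0.76) and Hspa1b (13717 and 7954, -0.86), close copies that could share reads, were lower without being called and were named after their values were seen. The time from culture to lysis is not given in the sources used here, and the part of handling in the AP-1 values was not tested.

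Macrophage transcripts were few. Of 14 macrophage markers, 10 were at or under 3 reads in ctrl and 8 in M2, and Adgre1, Ptprc, Fcer1g, Tyrobp and Chil3 had 0 reads in both libraries. The summed level of the list was 65.1 CPM in ctrl and 83.5 CPM in M2, mostly from Arg1 (1507 and 2090 reads, 0.40). Of the 5 markers tested, Aif1 was the 1 called (3 and 40 reads, higher), against 8.16% of all genes called higher. The lower limit of the 95% interval of Aif1 was 2.02. Of 7 fibroblast markers, 3 were called lower and 1 higher, against 6.55% and 8.16% of all genes tested. Their summed level was 330 CPM in ctrl and 134 CPM in M2. Col3a1 (1612 and 276 reads, -2.61) and Col1a2 (4463 and 1457, -1.68) were among those lower, and Dcn (51 and 157, 1.53) was the gene called higher. Of 6 basal markers 0 were called, and of 6 luminal markers Esr1 (1028 and 281 reads, -1.94) and Elf5 (5704 and 2776, -1.11) were called lower. At an assumed variation of 0.4 in exactTest, 0 macrophage, fibroblast, basal or luminal markers were called. The part of fibroblasts or luminal cells in the AP-1 values was not tested, and fewer cells of a type cannot be told apart from less RNA per cell.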

How the data were processed

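RNA of 1 ctrl and 1 M2 library was sequenced after mRNA library preparation (the series text speaks of a microarray, but the values are read counts). The deposited table holds raw read counts per gene, made by the authors and not normalized, with exon coordinates and the exon length of each gene, laid out as featureCounts writes them. Per the labels, the genome build is GRCm38 (mm10); the aligner, counter, annotation and use of strand are not given in the sources used here. Depth is given in the report.

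Library sizes were scaled by TMM (edgeR 4.0.16, R 4.3.3; factors 1.021 and 0.980). Genes with at least 10 reads summed were tested across all 19233 genes with a two-sided exact binomial test (scipy 1.17.1), adjusted by Benjamini-Hochberg. Calls needed at least a 2-fold difference with an adjusted p under 0.05. The log2 fold difference is that of reads plus a pseudocount of 1 read over the scaled library, and levels between genes are compared per kilobase, with shares of reads named as such. Fold intervals are 95% Clopper-Pearson intervals, and no molecular identifiers are stated, so they cover counting error only. The procedure was tested on simulated counts that held counting error only, so that test cannot address variation between cultures. The AP-1 genes and the other lists were chosen with earlier results of these data known. Of each other list, up to 6 called and up to 2 uncalled genes with the most reads are named, and others were chosen after their values were seen. A gene that this rule would name is not reported here. No unmapped column was present. Symbols were used as deposited, including the older Ctgf.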

Additional observations from a re-analysis of the deposited data

How the results depend on the processing

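Over 12 alternatives the log2 fold difference of Fos ran from -2.05 to -1.99, of Fosb from -2.76 to -2.64, of Atf3 from -1.86 to -1.79 and of Fosl1 from 1.18 to 1.25. The filters, the 4-fold threshold and the assumed variations leave fold differences as they are, so only calls could change there. Fosl2 changed sign, to -0.001, when scaled by total reads, a scaling that shifts all genes by -0.059. Jun, Junb, Jund and Maff kept their direction and stayed uncalled throughout, though the stricter 4-fold threshold and assumed variations could not add a call. Of the members, 0 were called higher at a 4-fold threshold or with an assumed coefficient of variation of 0.2 or 0.4 in the edgeR exactTest. Called lower were 1 (Fosb) at 4-fold and 0 with 0.4, where each call of a member was lost. Over all genes, 797 were higher and 583 lower with at least 1 CPM in both libraries, 616 and 494 at 4-fold, 964 and 691 with 0.2, and 175 and 130 with 0.4. The ratio of Fos to Jun genes changed by -1.32 without division by length. Depth limits Batf3, and leaves Fosl1 with a wide interval.

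No paired analysis was possible because ctrl and M2 are 1 library each. For the same reason leaving out a replicate and the DESeq2 test were not run.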
